A study of Mus musculus with 6 samples.

Results

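The Dppa genes (developmental pluripotency associated) are a set of genes named together for their expression in pluripotent cells. The 4 members described here, Dppa2, Dppa3, Dppa4 and Dppa5a, were chosen by gene name, and every probe that carries one of these names was taken (Dppa5a has its older name, Dppa5, on the array). They are 4 of the 27669 named genes on the array and 4 of the 19306 that passed the filter on dim probes. They were selected on earlier results from the same arrays, so their differences between groups are given below as a description and are not tested.

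The study transfected J1 mouse embryonic stem cells with short interfering RNAs (siRNAs) and isolated total RNA 96 hours later. The 3 groups were a non-targeting siRNA (NT, the control), and siRNAs that target Thoc2 or Thoc5, each with 2 arrays. All groups are the same cell line, which the labels keep in ESGRO medium and move to M10 medium for transfection, so the control cells also went through transfection and the change of medium. Each RNA was hybridised alone to a single-colour Agilent array of 60-base probes. The labels do not say whether the arrays of a group came from separate cultures, so the spread between them may be technical. Thoc2 and Thoc5 are subunits of the THO complex, which joins messenger RNA to the export machinery during transcription. Total RNA gives the level of a transcript in the whole cell and not its share in the nucleus.

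In embryonic stem cells Dppa2 and Dppa4 are partner proteins with a SAP domain, which bind chromatin together and keep the promoters of developmental genes and of 2-cell-stage genes open to activation. Dppa3 (also known as Stella or PGC7) is a maternal factor that protects DNA methylation in the zygote, marks early germ cells and binds Uhrf1, the protein that guides the maintenance methyltransferase Dnmt1. Dppa5a (also known as Esg1) is an RNA-binding protein of the KH-domain type that is abundant in embryonic stem cells. Dppa3 and Dppa5a are unrelated to Dppa2 and Dppa4 in their domains and share with them the name and the site of expression.

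Each gene is read through a single 60-base probe, except Dppa5a, which has 2 probes that did not give the same result. The first 30 bases of 4 probes and the whole of the other Dppa5a probe are shown, because each value below belongs to 1 short stretch of its transcript.
Dppa2, first 30 bases of A_52_P16249: aaatgccctacccccaaatatgccgccgta
Dppa4, first 30 bases of A_51_P346600: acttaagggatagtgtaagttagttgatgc
Dppa3, first 30 bases of A_51_P195044: taacctttaaattgtagataggatgcacaa
Dppa5a, first 30 bases of A_52_P362403: tttgttacatcctagcaagatattcctgga
Dppa5a, all 60 bases of A_52_P18706: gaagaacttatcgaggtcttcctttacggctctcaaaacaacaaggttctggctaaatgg
The sequences are in lower case, 5′ to 3′, as the array files give them. By the files' own coordinates, on build mm7, the Dppa2 probe lies at chr16:48078749-48078808 and the Dppa4 probe at chr16:48053770-48053829, both on the plus strand. The Dppa3 probe lies at chr6:122666937-122666996 on the plus strand. Of the Dppa5a probes, A_52_P362403 lies at chr9:78441271-78441330 on the minus strand, whereas the files place A_52_P18706 at chr5:28571256-28571315 on the plus strand although they name the same gene for it. The gene table in use lists pseudogene copies of Dppa5a and of Dppa3, so transcripts of near-identical copies could add to these probes. No probe shared a run of 20 bases with any other probe on the array. The share of G and C ran from 35% in the Dppa3 probe to 45.0% in A_52_P362403. A_52_P18706 holds 0 stop codons in its first and second reading frames. The files do not say which of the other probes lie in coding sequence and which in untranslated sequence.

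A level here is the log2 of the background-subtracted signal minus the 75th percentile of that array, so a difference of 1 is a doubling. Levels of different probes are on different scales and are not set against each other. All 5 Dppa probes were well above background on 6 of 6 arrays and none was saturated, so every member passed the filter in every group. The arrays differed in brightness: their 75th percentile signal lay between 716 and 905 on 5 arrays and at 306 on Thoc5 replicate 1, where 56.7% of spots were well above background against 68.3% to 79.7% on the others. Thoc2 replicate 1 had 880 outlier spots, against 63 to 155 elsewhere. Each siRNA went with a lower level of its target. Thoc2 differed from NT by -0.86 ± 0.28 (SE of the fit) with Thoc2 siRNA, and Thoc5 by -1.27 ± 0.27 with Thoc5 siRNA. With limma, 0 of 19306 genes (0%) passed a Benjamini-Hochberg adjusted p of 0.05 in any of the 3 comparisons, the smallest adjusted p being 0.207 with Thoc2 siRNA, 0.1 with Thoc5 siRNA and 0.396 between the siRNAs. At an unadjusted p under 0.05, 2817 genes differed between Thoc2 siRNA and NT, 3775 between Thoc5 siRNA and NT, and 1775 between the siRNAs.

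Dppa3 was the member with a large difference, and it was low with both siRNAs. Its level was 0.53 and 0.49 on the NT arrays, -1.54 and -1.43 on those of Thoc2 siRNA, and -1.23 and -1.49 on those of Thoc5 siRNA. The NT arrays lay together at the top, and all 4 siRNA arrays lay below both of them, with a gap of 1.72 between the lower NT array and the highest siRNA array. The mean difference from NT was -1.99 ± 0.16 with Thoc2 siRNA, which leaves 25.2% of the NT signal, and -1.87 ± 0.16 with Thoc5 siRNA, which leaves 27.3%. As fold changes Dppa3 was 3.97-fold and 3.66-fold lower. Before any scaling the probe's processed signal was 1177 and 1267 on the NT arrays, 246 and 273 on those of Thoc2 siRNA, and 130 and 262 on those of Thoc5 siRNA. The lowest of these came from the dimmest array. Among all genes 0.414% had a lower difference than Dppa3 with Thoc2 siRNA and 1.72% with Thoc5 siRNA. The siRNA groups overlapped each other, and the Thoc5 minus Thoc2 difference of 0.12 ± 0.16 was smaller than its error. Both comparisons use the same NT arrays.

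**Figure D1:**
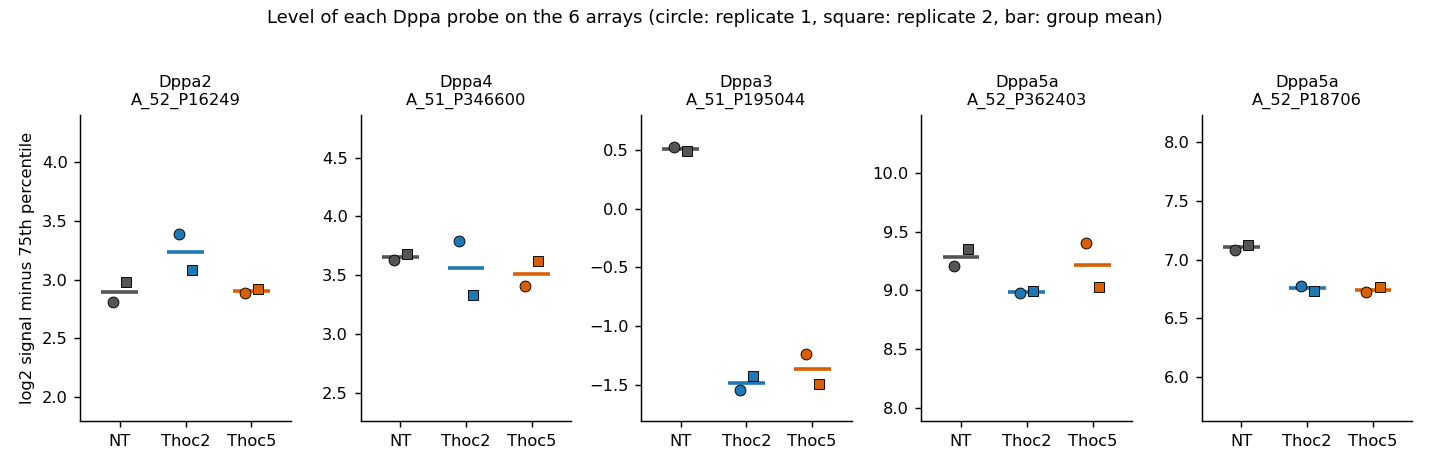
Level (log2 signal minus the array's 75th percentile) of the 5 Dppa probes in NT, Thoc2 siRNA and Thoc5 siRNA cells, with circles for replicate 1, squares for replicate 2 and bars for group means; each panel spans the same log2 range. The group means of Dppa3 are 0.51 with NT siRNA, -1.48 with Thoc2 siRNA and -1.36 with Thoc5 siRNA, and the groups of the other probes lie close together.

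Dppa2, the SAP-domain partner of Dppa4, was not low with either siRNA by the processed signal. Its level was 2.81 and 2.98 on the NT arrays, 3.39 and 3.08 on those of Thoc2 siRNA, and 2.89 and 2.92 on those of Thoc5 siRNA. Both Thoc2 siRNA arrays lay above both NT arrays, while the Thoc5 siRNA arrays lay between the NT arrays. The difference from NT was 0.34 ± 0.175 with Thoc2 siRNA (126% of NT) and 0.01 ± 0.175 with Thoc5 siRNA (101% of NT). The first ranged from 0.19 to 0.49 as each array was left out, the lower value being without Thoc2 replicate 1. The second turned to -0.08 without NT replicate 1. With normexp, another background correction, the differences from NT were 0.079 and -0.15. The Thoc5 siRNA arrays were lower than the Thoc2 siRNA arrays by a difference of -0.33 ± 0.175, with no overlap.

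Dppa4 differed from NT by less than its error. It read 3.63 and 3.68 on the NT arrays, 3.79 and 3.33 on those of Thoc2 siRNA, and 3.41 and 3.62 on those of Thoc5 siRNA. The Thoc2 siRNA arrays lay on either side of NT, and both Thoc5 siRNA arrays lay just below it. The mean difference was -0.09 ± 0.21 with Thoc2 siRNA (93.7% of NT) and -0.14 ± 0.21 with Thoc5 siRNA (90.7% of NT). With normexp correction the differences were -0.63 and -0.56. With the processed signal, the Thoc2 siRNA difference of -0.09 turned to 0.14 without Thoc2 replicate 2 and was -0.32 without Thoc2 replicate 1. Between the siRNAs the difference was -0.05 ± 0.21, and the groups overlapped.

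Dppa5a gave a small difference whose size depended on the probe. The brighter probe, A_52_P362403, which stands for the gene in the fit, read 9.21 and 9.35 on the NT arrays, 8.98 and 9.0 on those of Thoc2 siRNA, and 9.40 and 9.03 on those of Thoc5 siRNA. Thoc5 replicate 1 was the highest of the 6 arrays and Thoc5 replicate 2 was below both NT arrays. The difference from NT was -0.29 ± 0.19 with Thoc2 siRNA (81.6% of NT) and -0.07 ± 0.19 with Thoc5 siRNA (95.6% of NT). Without Thoc5 replicate 1 the latter was -0.25, and without Thoc5 replicate 2 it turned to 0.12.

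The dimmer Dppa5a probe, A_52_P18706, read 7.08 and 7.13 on the NT arrays, 6.77 and 6.73 on those of Thoc2 siRNA, and 6.73 and 6.76 on those of Thoc5 siRNA. All 4 siRNA arrays lay below both NT arrays and close to one another. Its difference from NT was -0.35 ± 0.14 with Thoc2 siRNA (78.3% of NT) and -0.36 ± 0.14 with Thoc5 siRNA (77.8% of NT). The probes thus gave like values with Thoc2 siRNA and unlike values with Thoc5 siRNA, through Thoc5 replicate 1. The brighter probe sat high in the scanner's range, at 72.8% and 88.7% of the saturation value on the NT arrays, 54.8% to 58.0% on 3 siRNA arrays and 31.3% on Thoc5 replicate 1, and the dimmer one between 4.91% and 19.0%. The part of this range in the disagreement was not tested. With the mean of both probes the Dppa5a difference was -0.32 with Thoc2 siRNA and -0.21 with Thoc5 siRNA.

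Read against the rest of the array, 2 of the 4 members (Dppa3 and Dppa5a) had both Thoc2 siRNA arrays below both NT arrays, a pattern seen in 20.9% of all genes, and Dppa2 had both above, as in 26.1%. With Thoc5 siRNA, Dppa3 and Dppa4 were below, as were 31.2% of all genes, and no member was above, against 21.7%. Between the siRNAs, Dppa2 was lower with Thoc5 siRNA, as in 32.6% of all genes, and Dppa5a (brighter probe) higher, as in 13.2%. A lack of overlap was common on these arrays, and Dppa3 differed from the other members in the size of its difference. The median difference of all genes was 0.061 with Thoc2 siRNA and -0.085 with Thoc5 siRNA. Relative to these medians the differences were -2.05 and -1.79 for Dppa3, 0.28 and 0.096 for Dppa2, -0.15 and -0.055 for Dppa4, and -0.35 and 0.020 for Dppa5a.

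**Figure D2:**
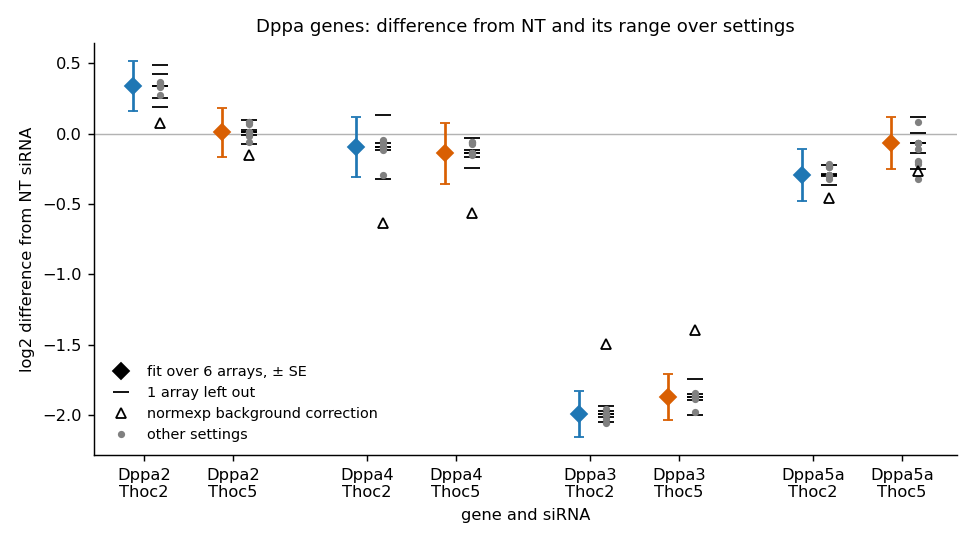
Log2 difference from NT of each Dppa gene (diamonds with SE, 2 arrays a group) beside the values with 1 array left out (dashes), with normexp background correction (triangles) and under other settings (grey points). Dppa3 stays between -2.06 and -1.39 throughout, while Dppa4 with Thoc2 siRNA and Dppa2 and Dppa5a with Thoc5 siRNA have values on both sides of 0.

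Differences between members within an array do not depend on the value the whole array was scaled by, and they separate Dppa3 from the other 3. With the NT mean set to 0, Dppa3 minus Dppa5a (brighter probe) was 0.093 and -0.093 on the NT arrays, -1.75 and -1.65 on those of Thoc2 siRNA, and -1.86 and -1.75 on those of Thoc5 siRNA. For this pair all 4 siRNA arrays, the dim one included, fell within a narrow range far from NT. The other pairs with Dppa3 were also far from NT but spread more widely. Dppa4 minus Dppa3 was 2.18 and 1.61 with Thoc2 siRNA (mean 1.90), and 1.49 and 1.97 with Thoc5 siRNA (mean 1.73). Dppa2 minus Dppa3 was 2.54 and 2.12 with Thoc2 siRNA (mean 2.33), and 1.74 and 2.03 with Thoc5 siRNA (mean 1.88). The partner genes Dppa2 and Dppa4 differed from each other by far less, with Dppa2 minus Dppa4 at -0.061 and 0.061 on the NT arrays, 0.35 and 0.51 on those of Thoc2 siRNA, and 0.24 and 0.061 on those of Thoc5 siRNA. These values show unequal change and do not say which gene moved. Pearson's r across the 6 arrays, which include the group differences, took Dppa5a from its brighter probe alone. It was 0.57 for Dppa3 with Dppa5a, 0.37 for Dppa2 with Dppa4, 0.28 for Dppa3 with Dppa4 and -0.14 for Dppa4 with Dppa5a. Dppa2 had an r of -0.50 with Dppa3 and -0.59 with Dppa5a. The dimmer Dppa5a probe, which like Dppa3 lay below NT on all 4 siRNA arrays, is not in these values.

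Dppa1, a further gene with the Dppa name, was well above background on 0 arrays. Dppa5b was not analysed here.

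The genes on either side of Dppa3 had differences closer to 0. On chromosome 6 the order of protein-coding genes is Apobec1, Gdf3, Dppa3, Nanog, Slc2a3 and Foxj2. Gdf3, a growth factor of the TGF-beta family, differed from NT by -0.07 ± 0.17 with Thoc2 siRNA and -0.47 ± 0.17 with Thoc5 siRNA. Nanog, a homeobox factor of pluripotent cells, differed by -0.07 ± 0.16 and -0.50 ± 0.16. The Thoc2 siRNA values of both change sign with single arrays left out, Gdf3 reaching 0.070 without Thoc2 replicate 2 and Nanog 0.053 without NT replicate 1. Slc2a3, a glucose transporter, was lower with both siRNAs, by a difference of -0.71 ± 0.15 and -0.65 ± 0.15, with no overlap with NT. Further out, Apobec1, a cytidine deaminase that edits RNA, differed by -0.34 ± 0.15 and 0.099 ± 0.15, and the first turned to 0.72 with the mean of its 2 probes. Foxj2 differed by -0.0083 ± 0.39 and -0.038 ± 0.39, both smaller than their errors. Dppa3 thus had the lowest difference of these 6 genes with each siRNA.

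Dppa4 and Dppa2 are adjacent on chromosome 16. On the Dppa4 side Nectin3, a cell adhesion molecule, differed from NT by -0.011 ± 0.21 with Thoc2 siRNA and -0.32 ± 0.21 with Thoc5 siRNA. On the Dppa2 side Morc1, a germ cell ATPase that silences transposons, differed by -0.046 ± 0.30 and -0.63 ± 0.30. With Thoc2 siRNA, Morc1 read from -0.34 to 0.24 as single arrays were left out, and Nectin3 from -0.13 to 0.11. Trat1 was well above background on 3 of 6 arrays, and Retnlb on 1. Gm52257 and Gm4737 were not analysed here.

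Around Dppa5a on chromosome 9 the measured neighbours were Ooep and Cgas. Ooep, next to it, is an oocyte protein with a KH-like domain and a member of the subcortical maternal complex. It read 4.12 and 4.59 on the NT arrays, 3.42 and 3.46 on those of Thoc2 siRNA, and 2.97 and 2.90 on those of Thoc5 siRNA. The 3 groups did not overlap, with NT highest and Thoc5 siRNA lowest. Its difference from NT was -0.91 ± 0.21 and -1.42 ± 0.21, further from 0 than that of either Dppa5a probe. Cgas, a sensor of cytosolic DNA, differed by -0.37 ± 0.31 and -0.17 ± 0.31, its groups overlapped, and with normexp correction the values were 0.36 and 0.35. Omt2b and Gsta2, on the other side, were well above background on 0 arrays.

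**Figure D3:**
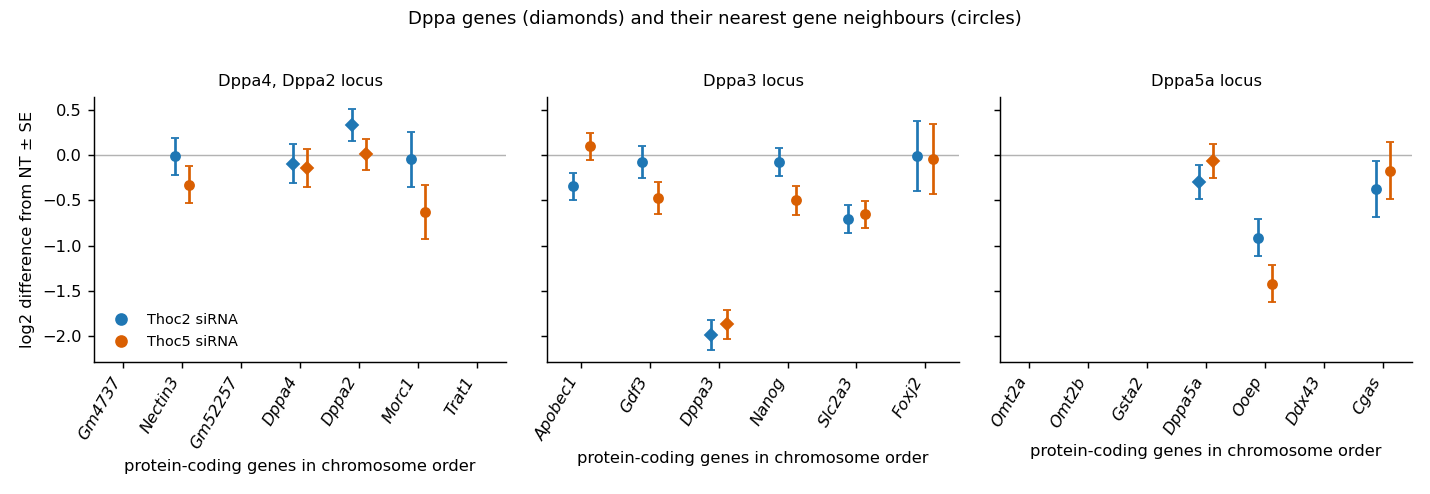
Log2 difference from NT, with SE, of the Dppa genes (diamonds) and of the nearest genes on each side in chromosome order (circles), for Thoc2 siRNA (blue) and Thoc5 siRNA (orange); names with no point were not measured or were well above background on under 4 of 6 arrays. Dppa3 lies near -1.99 and -1.87 between Gdf3 and Nanog, which lie at -0.07 with Thoc2 siRNA and at -0.47 and -0.50 with Thoc5 siRNA, and Ooep lies below Dppa5a.

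Genes tied to each member by function were described by counts beside those of all genes, of which 44.4% had a difference below 0 with Thoc2 siRNA and 56.8% with Thoc5 siRNA. limma called 0 genes in every list, as over the whole array. The lists were chosen with earlier results from these arrays known.

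The partners of Dppa3 in DNA methylation lay on both sides of 0. All 12 genes of the list were measured. With Thoc2 siRNA 5 lay below 0 and 7 above, with a median of 0.057, and with Thoc5 siRNA 7 lay below and 5 above, with a median of -0.031. Uhrf1, which Dppa3 binds, differed from NT by 0.08 ± 0.19 and -0.02 ± 0.19, and Dnmt1 by 0.20 ± 0.14 and 0.019 ± 0.14, and with normexp correction all 4 of these values were below 0. Dnmt3a, a de novo methyltransferase, had the lowest values of the list. It read 1.77 and 1.91 on the NT arrays, 0.85 and 0.90 on those of Thoc2 siRNA, and 0.72 and 0.47 on those of Thoc5 siRNA, a difference of -0.97 ± 0.16 and -1.25 ± 0.16. Tet3, an enzyme that oxidises methylcytosine, had the highest, at 0.70 ± 0.22 and 0.51 ± 0.22, which became 0.054 and 1.02 with the mean of its 3 probes.

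Germ cell genes, which are expressed with Dppa3 in early germ cells, were mixed. With Thoc2 siRNA 10 of 13 measured genes lay below 0, with a median of -0.50, and 8 of the 13 had both arrays below NT, as in 20.9% of all genes, and 1 above, as in 26.1%. With Thoc5 siRNA 9 of 13 lay below 0, with a median of -0.22, and 7 of the 13 had both arrays below NT, as in 31.2% of all genes, and 2 above, as in 21.7%. Prdm1, a repressor that specifies germ cells, was among the lowest at -1.14 ± 0.20 and -1.56 ± 0.20. Its signal is dim, and with normexp correction the differences were 0.094 and -0.11. Stra8, a gene of meiotic entry, differed by -1.17 ± 0.45 and -0.94 ± 0.45, and by -0.72 and -0.48 without NT replicate 2. Ddx4, an RNA helicase of germ cells, was higher than NT with both siRNAs, at 0.82 ± 0.28 and 1.21 ± 0.28.

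Genes of the 2-cell-like state, which Dppa2 and Dppa4 are known to help activate, lay on both sides of 0, with more below. Of 25 genes listed, 10 were measured; the others were not analysed here or did not pass the filter. With Thoc2 siRNA 7 lay below 0 and 3 above, with a median of -0.64, and with Thoc5 siRNA 8 lay below and 2 above, with a median of -1.02. Of these, Usp17lb and Arg2 passed the filter through the NT arrays alone; without them 5 of 8 and 6 of 8 lay below 0, and the medians were the same. Zscan4c, a zinc finger gene of a family of near-identical copies that the probe may not tell apart, read 2.26 and 1.35 on the NT arrays, -3.38 and -3.46 on those of Thoc2 siRNA, and 0.60 and -0.88 on those of Thoc5 siRNA. The 3 groups did not overlap, and the lowest values were those of Thoc2 siRNA. The difference was -5.23 ± 0.59 with Thoc2 siRNA and -1.95 ± 0.59 with Thoc5 siRNA, and with normexp correction the first was -3.51. Usp17lb, of another multicopy family, was well above background on both NT arrays but not on Thoc2 replicate 2 or either Thoc5 siRNA array. Its spot on Thoc2 replicate 1 was an outlier and was left out. It was thus at least 3.79-fold lower with Thoc2 siRNA, by Thoc2 replicate 2 alone, and at least 3.21-fold lower with Thoc5 siRNA. The bound takes, on each of these siRNA arrays, the higher of the probe's own signal and the lowest signal among probes well above background. With normexp correction its measured difference was -0.67 with Thoc2 siRNA and 0.56 with Thoc5 siRNA, so these bounds hold only for the processed signal. The list medians are the same with Usp17lb at its bound. Sp110 was higher with both siRNAs, at 0.62 ± 0.25 and 0.65 ± 0.25. Tdpoz1 was higher with Thoc2 siRNA, at 1.21 ± 0.48, and lower with Thoc5 siRNA, at -0.81 ± 0.48, a value that turned to 0.79 with normexp correction.

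The KH-domain relatives of Dppa5a and the genes of the subcortical maternal complex lay mostly below 0. Of 9 genes, 6 were measured, and 5 of the 6 lay below 0 with each siRNA, with medians of -0.43 and -0.84. Khdc3, a KH-domain partner of Ooep in that complex, read 3.22 and 3.65 on the NT arrays, 2.44 and 2.91 on those of Thoc2 siRNA, and 2.57 and 2.09 on those of Thoc5 siRNA. All siRNA arrays lay below NT, and the differences were -0.76 ± 0.29 and -1.11 ± 0.29. Nlrp5, the gene above 0, was well above background on 4 of 6 arrays, and its differences of 2.34 ± 1.13 and 0.15 ± 1.13 carry a large error.

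Pluripotency factors that act on the Dppa genes lay mostly below 0, by small differences. With Thoc2 siRNA 8 of 11 measured genes lay below 0, with a median of -0.14, and with Thoc5 siRNA 10 of 11, with a median of -0.36. Pou5f1 differed from NT by -0.42 ± 0.22 and -0.88 ± 0.22, Sox2 by -0.50 ± 0.19 and -0.52 ± 0.19, and Esrrb by -0.30 ± 0.17 and -0.27 ± 0.17, each with no overlap with NT. With the mean of its 2 probes, Esrrb differed by -0.017 with Thoc2 siRNA. Every one of these differences was closer to 0 than that of Dppa3. Klf2 and Klf5, Krüppel-like factors of the naive state, had the highest values, at 0.15 ± 0.14 with Thoc2 siRNA and 0.05 ± 0.19 with Thoc5 siRNA, both below 0 with normexp correction.

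Among stem cell genes named alongside the family, 9 of 14 measured genes lay below 0 with Thoc2 siRNA and 12 of 14 with Thoc5 siRNA, with medians of -0.20 and -0.19. Fbxo15, an F-box gene specific to embryonic stem cells, had the lowest values, at -0.86 ± 0.17 and -1.21 ± 0.17. Nr0b1, a nuclear receptor of the naive network, had the highest with Thoc2 siRNA, at 0.38 ± 0.15, and Rex2 with Thoc5 siRNA, at 0.21 ± 0.26, which was -0.23 with normexp correction.

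**Figure D4:**
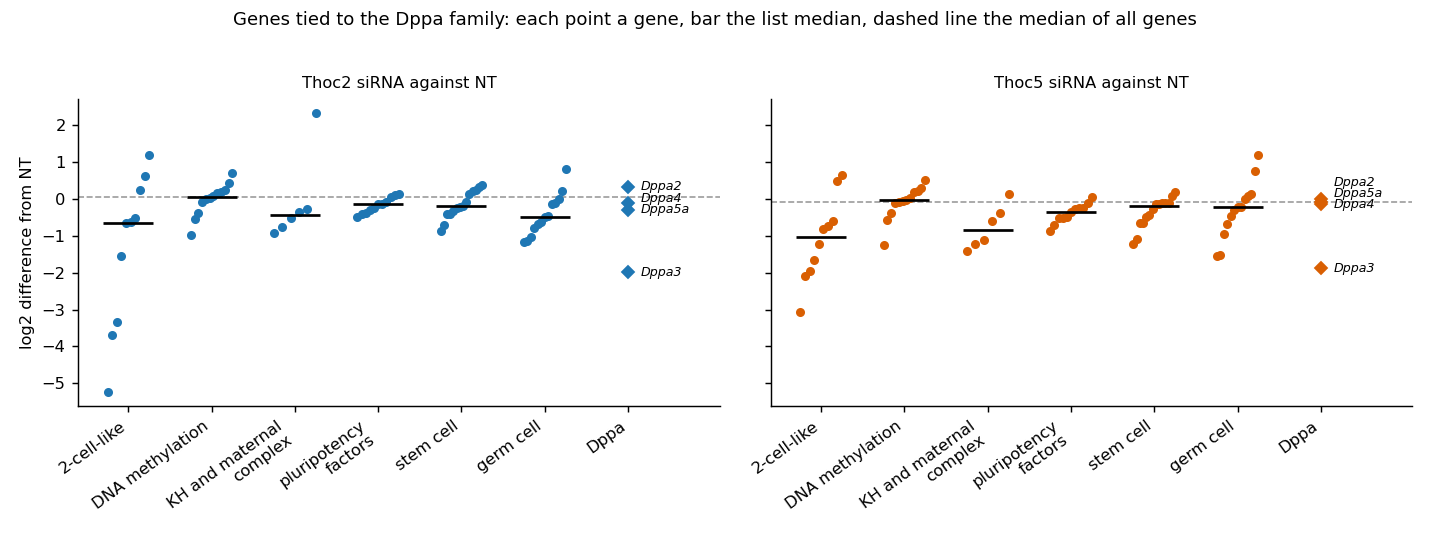
Log2 difference from NT of each measured gene (points) in 6 lists of genes tied to the Dppa family. Bars mark the list median, the dashed line the median of all genes and diamonds the 4 Dppa genes. Usp17lb, not well above background on any siRNA array that gave a value, is drawn at its measured value. Dppa3 lies below every gene of the DNA methylation, pluripotency, stem cell and germ cell lists in both panels.

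In total RNA from a culture, fewer cells that express a gene and less RNA per cell cannot be told apart, and Dppa3 is known to vary from cell to cell in embryonic stem cells. Marker lists of cell types were read beside this by the summed linear level of their kept probes, a sum in which the brightest probe weighs most, and by counts of genes. All 7 embryonic stem cell markers lay below 0 with each siRNA, against 44.4% of all genes with Thoc2 siRNA and 56.8% with Thoc5 siRNA. Both siRNA arrays lay below NT for 5 of the 7 with Thoc2 siRNA, as in 20.9% of all genes. With Thoc5 siRNA this held for 6 of the 7, as in 31.2% of all genes. Nanog with Thoc2 siRNA, at -0.07, turned to 0.053 without NT replicate 1. Esrrb with Thoc2 siRNA, at -0.30, was -0.017 with the mean of its 2 probes. The sum ran from 303 to 327 on the NT arrays, 231 to 247 for Thoc2 siRNA and 196 to 242 for Thoc5 siRNA. Zfp42 made up 60.6% of the NT sum. The 4 measured markers of 2-cell-like cells also lay below 0 with each siRNA. In each case 3 of the 4 had both siRNA arrays below NT, as in 20.9% and 31.2% of all genes. The errors of Tcstv1 and Tcstv3 were large, at 1.07 and 0.87 with each siRNA. All 4 belong to the longer 2-cell-like list above, where 3 of 10 genes lay above 0 with Thoc2 siRNA and 2 of 10 with Thoc5 siRNA. The sums of the 4 markers were 2.95 to 5.71, 0.400 to 0.442 and 0.651 to 1.82, and Zscan4c made up 84.9% of the NT sum. Trophectoderm markers (5 of 6 measured, without Elf5) summed to 14.9 to 15.5, 10.8 to 10.9 and 20.1 to 22.9. The keratin gene Krt18 made up 50.5% of the NT sum. With Thoc2 siRNA the lineage factors Cdx2 (0.97 ± 0.30) and Eomes (0.39 ± 0.20) lay above NT, and Tfap2c (-0.62 ± 0.23) lay below it. Fibroblast markers (7 of 8 measured, 5 of them above background on all arrays) summed to 1.97 to 2.44, 1.17 to 1.45 and 0.983 to 1.09. Thy1 made up 58.5% of the NT sum, with differences of -1.56 and -2.01, while Fbn1 lay above NT at 0.90 and 0.78. The sums overlapped NT for primitive endoderm markers (0.769 to 6.01, 2.64 to 2.88 and 2.45 to 9.0) and for neural markers (1.19 to 1.34, 0.973 to 1.28 and 1.21 to 1.42). Epiblast markers summed to 32.6 to 44.3, 35.3 to 35.9 and 30.9 to 32.4. Mesoderm markers (3 of 4 measured, without Mixl1, 2 of them above background on all arrays) summed to 0.243 to 0.245, 0.329 to 0.492 and 0.307 to 0.372. The mesoderm sums of both siRNA groups lay above NT. Kdr differed by 1.20 ± 0.22 and 1.24 ± 0.22 and Eomes by 0.39 ± 0.20 and 0.24 ± 0.20, while T, at 0.20 ± 1.06 and -0.59 ± 1.06, overlapped NT. The part of these differences in that of Dppa3 was not tested.

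Several genes followed the Dppa3 pattern closely over the 6 arrays, by Pearson's r among 11686 genes. The nearest were Arhgap22 (r = 0.998), 2810025M15Rik (r = 0.997), H2-K1 (r = 0.994), Snx6 (r = 0.993) and Klhl8 (r = 0.993). H2-K1, a class I histocompatibility heavy chain, differed from NT by -1.69 with Thoc2 siRNA and -1.72 with Thoc5 siRNA, and Arhgap22 by -1.30 and -1.28. In all, 664 genes had an r above 0.9 with Dppa3, against 138 for Dppa2, 74 for Dppa4 and 10 for Dppa5a (brighter probe). The 6 points share their group structure and their scaling, and r is given as a description. Usp42 (r = 0.991), Cenpi (r = 0.987), Irx4 (r = 0.987), Pcmtd1 (r = 0.979) and Klhl35 (r = 0.974) were nearest to Dppa2, with differences of 0.29 to 1.33 with Thoc2 siRNA, of which Pcmtd1 turned to -0.11 and Cenpi to -0.015 with normexp correction. Nearest to Dppa4 were Nedd4 (r = 0.976), Pms1 (r = 0.974), Spin2c (r = 0.972), Srbd1 (r = 0.968) and Sycp1 (r = 0.967). Dppa5a, by its brighter probe, had fewer close matches, Usp49 (r = 0.983), Slc20a1 (r = 0.967), Grn (r = 0.958), NAP114978-1 (r = 0.944) and Eif4ebp3 (r = 0.940). No gene was among the nearest 5 of more than 1 member.

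Slides can be told apart from groups in part. NT replicate 1 shared a slide with Thoc2 replicate 2, and NT replicate 2 with Thoc5 replicate 2. Within the shared slide Dppa3 differed by -1.95 with Thoc2 siRNA and by -1.98 with Thoc5 siRNA, 1 array against 1, and with the slide as a random block by -2.0 and -1.88. Dppa5a (brighter probe) differed within the shared slide by -0.32 with Thoc5 siRNA. Dppa2 read 0.27 with Thoc2 siRNA within the slide.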

How the data were processed

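The data are 6 single-colour Agilent arrays. Per the file headers, the authors' Feature Extraction software (9.5.3.1; the submitters' processing notes name 11.0) wrote for each spot a background-subtracted intensity, its processed signal. The deposited series table holds log2 values of the same arrays; each of its columns has a median of 5.82 and ranks probes as the processed signal does (Spearman 1), so it was used only as an alternative, and how its columns were brought to 1 scale is not given in the sources used here.

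Control and outlier spots were left out, log2 intensities were set against each array's 75th percentile over 43379 spots, and spots were averaged into 41174 probes. A probe was kept if at least 0.5 of its spots were well above background on every array of a group, and the brightest kept probe stood for a gene; 280 genes lacked a value on an array. limma 3.58.1 in R 4.3.3 fitted group means over all 6 arrays (3 residual degrees of freedom), with Benjamini-Hochberg adjustment over all genes and a threshold of 0.05, and was tested on simulated data. In that simulation of the Thoc2 siRNA comparison, 1.2% of genes with a true log2 difference of 1 were called, and 39.6% with a difference of 2. The number of arrays limits the precision, and 0 called genes does not show that no gene changed. Alternatives were normexp with an offset of 50, quantile and cyclic loess normalization, other filters, the mean of a gene's probes, trend and robust variances, slide and replicate blocks, and each array left out.

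The members and lists were chosen with earlier results of these data known. The text names the members with their probes, the siRNA targets, the 3 nearest genes on each side (1 is not reported here), the 5 most alike by Pearson's r (among genes with an SD over the arrays of at least 0.173), and of each list its highest and lowest genes and preset ones. Symbols were updated through RefSeq's gene table (GRCm38.p6), which also gave gene order; no coordinates were taken from it.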

Additional observations from a re-analysis of the deposited data

How the results depend on the processing

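Dppa3 was below NT in 18 of 18 values with each siRNA, from -2.06 to -1.49 with Thoc2 siRNA and -2.0 to -1.39 with Thoc5 siRNA. Several of these settings could not move its difference and repeat the same value. They are the other filters, the mean of probes, the trend and robust variances, the replicate block and the leaving out of an array of the other siRNA. Normexp correction moved most values: with Thoc2 siRNA it gave 0.079 for Dppa2, -0.63 for Dppa4, -1.49 for Dppa3 and -0.46 for Dppa5a, and with Thoc5 siRNA -0.15, -0.56, -1.39 and -0.26. It also moved the median of all genes by 0.23 and 0.33. Relative to that median Dppa3 was -1.78 and -1.63, Dppa4 -0.92 and -0.80, Dppa5a -0.75 and -0.50, and Dppa2 -0.21 and -0.39. With this correction all 4 members thus lay below the median of all genes with each siRNA, Dppa3 by the most. The absence of a filter moved the median by 0.10 and 0.14 and left the members' own values as they were. Between the siRNAs, Dppa5a was 0.033 with quantile normalization and 0.033 in the deposited table, and with Thoc5 siRNA it was -0.32 within the shared slide and 0.087 with cyclic loess; the cause was not tested. With 1 array left out, Dppa2 ran from 0.19 to 0.49 and Dppa4 from -0.32 to 0.14 with Thoc2 siRNA, Dppa3 from -2.0 to -1.74 and Dppa5a from -0.25 to 0.12 with Thoc5 siRNA. Between the siRNAs the ranges were -0.48 to -0.18 for Dppa2, -0.28 to 0.18 for Dppa4, -0.011 to 0.25 for Dppa3 and 0.045 to 0.41 for Dppa5a; where a group was left with 1 array, that array was assumed to vary like the other groups. Over all genes, limma called 543 genes with Thoc5 siRNA when only the 15057 genes above background on all 6 arrays were tested, and 660 with trend and robust variances, which called 4 with Thoc2 siRNA; every other setting called 0. The replicate numbers did not pair the arrays in every comparison (correlation of deviations -0.20 for Thoc2 siRNA and NT, 0.14 for Thoc5 siRNA and NT, 0.22 between the siRNAs). The replicate block left the Dppa3 differences at -1.99 and -1.87 and called 0 genes. The crossed pairing of Thoc2 siRNA with NT, chosen after seeing the data, called 0 genes, with 2743 at an unadjusted p under 0.05. For the other named genes 1557 values moved by less than the replicate spread and 238 by more. The first count includes settings that could not move a value, such as other variances or an array left out from outside the comparison.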
